A study of Mus musculus with 2 samples.

Results

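The 32 mitosis genes examined here encode proteins that condense and separate chromosomes and divide the cell: Mki67, Top2a, Birc5, Cdk1, Ccnb1, Ccnb2, Ccna2, Cdc20, Cenpa, Cenpe, Cenpf, Aurka, Aurkb, Bub1, Bub1b, Ube2c, Nusap1, Tpx2, Kif11, Kif20b, Kif23, Ttk, Plk1, Cks2, Ckap2, Hmmr, Anln, Tacc3, Smc4, Ndc80, Nuf2 and Hmgb2. They were taken by symbol, and all 32 were found once each among the 53715 genes listed. They were measured in natural killer (NK) cells sorted as CD45.2+CD3-NKp46+ from CT26_b2m-/- tumours, grown from a mouse colon carcinoma line that lacks B2m, a gene needed for MHC class I at the cell surface. One library came from the group treated with IL-15SA+IL-21Fc, called the combination library below, and 1 from the group treated with IL-15SA. These names follow the sample titles; the series title names the treatments as IL-21 with and without IL-15. Cells of a treatment were pooled before a single library was made, the labels give neither host strain, age, dose nor number of animals, and no untreated library was analysed here. With 1 library per group no difference has a replicate check: no test was made, and every interval below is a 95% interval for counting error only.

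Entry into mitosis is driven by Cdk1 bound to A and B cyclins. Polo-like and Aurora kinases then build the spindle, kinetochores attach chromosomes to it, and the spindle checkpoint holds back the anaphase-promoting complex until all are attached. Most genes of this kind are transcribed in G2 and M, after the genes of DNA replication, and are repressed in resting cells. IL-15 is a main signal for NK cell survival and division.

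The combination library held 12435 barcodes with 35336180 UMIs (unique molecular identifiers, 1 per captured transcript) and the IL-15SA library 8386 barcodes with 30893388 UMIs. After a filter on genes and mitochondrial UMIs, 11050 combination cells (88.9% of those kept) and 7792 IL-15SA cells (92.9%) had at least 1 UMI of Ncr1, which encodes NKp46. These Ncr1-positive cells are the basis of all values unless stated. Their median depth was 2424.5 UMIs in the combination library and 3165.5 UMIs in the IL-15SA library. All 10 NK markers stood at 20 CPM (UMIs of the gene per 1000000 UMIs summed over cells) or more in both libraries, and their sum was 24829 CPM in the combination library and 27672 CPM in the IL-15SA library. The 5 markers of ILC1, a type of innate lymphoid cell, summed to 331 CPM in the combination library and 221 CPM in the IL-15SA library. Most of it came from Tmem176b (156 CPM and 107 CPM), Tmem176a (108 CPM and 63.8 CPM) and Cxcr6 (46.7 CPM and 36.0 CPM). Such cells were not set apart, and their part in the values below was not tested. The B cell gene Ms4a1 was at 0. The 7 myeloid markers summed to 62.0 CPM in the combination library and 46.9 CPM in the IL-15SA library, most of it from Cd68 (37.6 CPM and 28.9 CPM) and Itgax (24.1 CPM and 17.8 CPM), with C1qa at 0. Cd3e and Cd8a were at 0.655 and 0.0624 CPM in the combination library and at 1.25 and 0.102 CPM in the IL-15SA library, while Trbc1, Cd3g, Cd3d and Trac stood at 1025, 113, 31.4 and 22.4 CPM in the combination library and 1018, 105, 34.2 and 16.8 CPM in the IL-15SA library. All 8 T cell markers together summed to 1194 CPM in the combination library and 1176 CPM in the IL-15SA library. The 12 tumour or stroma markers summed to 367 CPM in the combination library and 172 CPM in the IL-15SA library. Barcode sequences shared by the libraries numbered 60, 52 of them among Ncr1-positive cells.

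Fewer NK cells of the combination library carried several mitosis genes at once, while the level of these genes inside such cells was close to that in the IL-15SA library. Each cell was thinned at random to 1000 UMIs, so that detection did not depend on depth, and a cell with at least 3 of the 32 genes was called multi-positive. Multi-positive cells numbered 3282 in the combination library, 29.7% of its cells (28.9 to 30.6%), and 2828 in the IL-15SA library, 36.3% (35.2 to 37.4%). The ratio of these shares was 0.818 (0.785 to 0.853). Cells in which no mitosis gene was found made up 22.9% of the combination library and 19.5% of the IL-15SA library. At the other end, cells with 10 or more of the genes made up 2.97% in the combination library and 3.90% in the IL-15SA library, and the most found in 1 cell was 16 and 19.

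Summed over all Ncr1-positive cells, the 32 genes took 0.400% of the UMIs in the combination library and 0.427% in the IL-15SA library. Of the 32 genes, 27 had a lower CPM in the combination library and 5 a higher one. Beside this, 53.2% of the 5490 genes at 20 CPM or more were lower and 46.8% higher. With cells weighted to the same UMIs per cell, 3 of the 32 were lower and 29 higher. The split of all genes was not counted with that weighting, and their median log2 ratio was then 0.00057. All of the 32 but Ttk reached 20 CPM in at least 1 library. None of the 32 was 1.5-fold lower or 1.5-fold higher, where 0.492% of all genes were at least that much lower and 1.93% at least that much higher. The median log2 ratio, combination over IL-15SA with 1 CPM added, was -0.12 over the mitosis genes and -0.01 over all genes. The counting interval of the ratio lay below 1 for 18 genes, above 1 for 2, Ccnb2 and Anln, and held 1 for 12. The share of cells with a UMI of the gene after thinning was lower in the combination library for 31 of the 32, all but Anln. The intervals of the 2 shares were apart for 16. Neither the intervals of ratios nor these shares were counted over all genes, so no excess over other genes is read from them.

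Within multi-positive cells the genes split evenly by direction. To keep a gene from choosing its own cells, each gene was measured in cells with at least 3 of the other 31. Then 16 genes were lower and 16 higher in the combination library, beside 51.5% of 5641 genes lower and 48.5% higher. None passed 1.5-fold, as did 0.603% of all genes downward and 2.34% upward. The median log2 ratio was -0.0015, and the ratios ran between 0.900 for Mki67 and 1.34 for Anln. The interval lay below 1 for Mki67, Cdk1 and Cenpa and held 1 for 22 genes. It lay above 1 for 7: Smc4, Ccnb2, Cks2, Cenpf, Ndc80, Kif23 and Anln. Intervals were not counted over all genes here either. In the remaining cells 17 of the mitosis genes were lower and 15 higher, beside 51.5% of 5387 genes lower and 48.5% higher. Multi-positive cells supplied 78.0% of the mitosis gene UMIs in the combination library and 80.3% in the IL-15SA library.

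**Figure D1:**
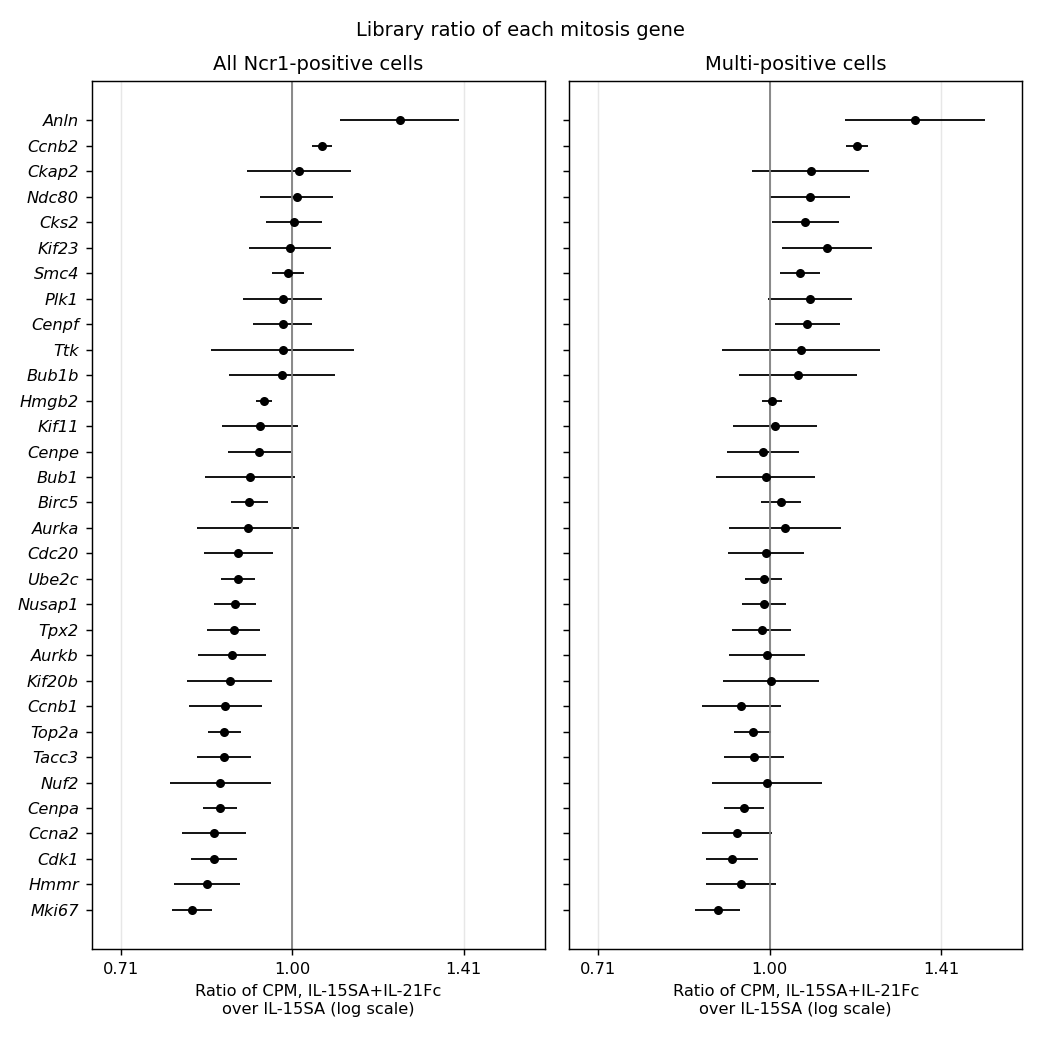
CPM in the combination library divided by CPM in the IL-15SA library for each of the 32 mitosis genes, over all Ncr1-positive cells (left) and in cells with at least 3 of the other genes (right). Points are ratios and bars 95% counting intervals; most points of the left panel lie below 1, with a range of 0.816 to 1.24, and those of the right panel lie on both sides of 1, with a range of 0.900 to 1.34.

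Among the genes that shape mitotic chromosomes, Mki67, whose protein coats the chromosome surface (chr7:135689784-135716361), had the lowest library ratio of the 32. It stood at 139 CPM in the combination library and 170 CPM in the IL-15SA library, a ratio of 0.816 (0.783 to 0.850). It was found in 9.30% of thinned combination cells and 12.2% of thinned IL-15SA cells. In multi-positive cells it remained lower, at 312 CPM in the combination library and 347 CPM in the IL-15SA library, with a ratio of 0.900 (0.860 to 0.942). Top2a, the topoisomerase that untangles sister DNA, was at 208 CPM in the combination library and 239 CPM in the IL-15SA library (ratio 0.872, 0.843 to 0.901), and its ratio in multi-positive cells was 0.967. Smc4, a core subunit of condensin, hardly differed, at 233 CPM in the combination library and 235 CPM in the IL-15SA library. Hmgb2, a DNA-bending chromatin protein, was at 1002 CPM in the combination library and 1060 CPM in the IL-15SA library, and in multi-positive cells at 1873 CPM in the combination library and 1865 CPM in the IL-15SA library.

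Of the genes for mitotic entry, Cdk1 was at 110 CPM in the combination library and 129 CPM in the IL-15SA library, a ratio of 0.853 (0.815 to 0.893). Its ratio in multi-positive cells was 0.927 (0.879 to 0.977). The cyclins that bind Cdk1 differed in direction in summed CPM. Ccnb1 was at 44.1 CPM in the combination library and 50.5 CPM in the IL-15SA library, and Ccna2 at 55.6 CPM in the combination library and 65.1 CPM in the IL-15SA library, with ratios of 0.874 (0.812 to 0.940) and 0.854 (0.800 to 0.911). Ccnb2 (chr9:70407692-70421547) was higher instead, at 624 CPM in the combination library and 588 CPM in the IL-15SA library, a ratio of 1.06 (1.04 to 1.08). The gap was wider in multi-positive cells, where Ccnb2 was at 1491 CPM in the combination library and 1249 CPM in the IL-15SA library, a ratio of 1.19 (1.17 to 1.22). The share of thinned cells with Ccnb2 went the other way, at 24.1% in the combination library and 27.0% in the IL-15SA library. With cells weighted to the same UMIs per cell, the log2 ratios of Ccnb1, Ccna2 and Ccnb2 were all above 0, at 0.12, 0.08 and 0.33. From the mean CPM of single cells they were -0.30, -0.30 and 0.0015. Cks2, a small Cdk-binding subunit, was at 80.0 CPM in the combination library and 79.8 CPM in the IL-15SA library.

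The 4 genes of mitotic kinases and their partners were all lower over all cells, with a median log2 ratio of -0.12, and 1 of them was lower in multi-positive cells. Aurkb, the catalytic subunit of the chromosomal passenger complex, was at 50.8 CPM in the combination library and 57.3 CPM in the IL-15SA library (ratio 0.886, 0.827 to 0.949), and Birc5, its survivin subunit, at 178 CPM in the combination library and 194 CPM in the IL-15SA library (ratio 0.917, 0.884 to 0.951). Plk1, which acts at centrosomes and kinetochores, was at 40.2 CPM in the combination library and 41.0 CPM in the IL-15SA library, and Aurka, which acts at spindle poles, at 22.8 CPM and 25.0 CPM. The counting intervals of both ratios held 1. So did those of the 3 spindle checkpoint genes Ttk, Bub1 and Bub1b, whose ratios were 0.981, 0.918 and 0.979.

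The checkpoint acts on Cdc20, an activator of the anaphase-promoting complex, for which Ube2c supplies ubiquitin. Cdc20 was at 49.7 CPM in the combination library and 55.5 CPM in the IL-15SA library, and Ube2c at 201 CPM in the combination library and 224 CPM in the IL-15SA library. Both ratios were 0.897, and in multi-positive cells they were 0.992 and 0.988. Cdc20 overlaps Elovl1 and Ube2c overlaps Tnnc2 in the annotation, as do Ccna2 and Exosc9, Nusap1 and Oip5, and Tacc3 and Tmem129. These partners lie on the other strand, as does Gm45240 with Mki67. Same-strand overlaps were also present, among them Gm48646 with Anln, AC137605.4 with Kif11 and Gm23451 with Top2a. Whether counting used the strand is not given in the sources used here, so reads of these pairs may be shared.

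Among kinetochore genes, Cenpa, the histone H3 variant of centromeres, was at 195 CPM in the combination library and 226 CPM in the IL-15SA library, a ratio of 0.865 (0.835 to 0.895). In multi-positive cells its ratio was 0.949 (0.911 to 0.989). Cenpf and the Ndc80 complex gene Ndc80 differed little over all cells, with ratios of 0.981 and 1.01, whereas Nuf2, the direct partner of Ndc80, had a ratio of 0.865 (0.781 to 0.957). Of the 6 spindle genes 5 were lower, with a median log2 ratio of -0.17. Hmmr, a spindle-associated protein and hyaluronan receptor, was at 52.6 CPM in the combination library and 62.5 CPM in the IL-15SA library (ratio 0.841, 0.787 to 0.899), and was found in 3.57% of thinned combination cells and 5.08% of thinned IL-15SA cells. Nusap1 and Tpx2, which organise spindle microtubules, and Tacc3, which stabilises them, had ratios of 0.891, 0.888 and 0.871. Kif11, the motor that pushes spindle poles apart, and Ckap2 had ratios of 0.937 and 1.01, and both intervals held 1.

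The cytokinesis genes included the member with the highest ratio. Anln, an actin-binding protein of the contractile ring (chr9:22332012-22389188), was at 20.1 CPM in the combination library and 16.2 CPM in the IL-15SA library, a ratio of 1.24 (1.10 to 1.40), and in multi-positive cells at 38.8 CPM in the combination library and 28.9 CPM in the IL-15SA library, a ratio of 1.34 (1.16 to 1.55). Its log2 ratio was 0.30, and 0.21 without the barcodes that held at least 2 tumour or stroma markers, which were 4.23% of combination cells and 2.28% of IL-15SA cells. With at least 2 Ncr1 UMIs required it was 0.11. The part of other cells in this ratio was not tested. Kif23, a motor of the central spindle, was at 36.7 CPM in the combination library and 36.8 CPM in the IL-15SA library, and Kif20b had a ratio of 0.881 (0.809 to 0.959).

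**Figure D2:**
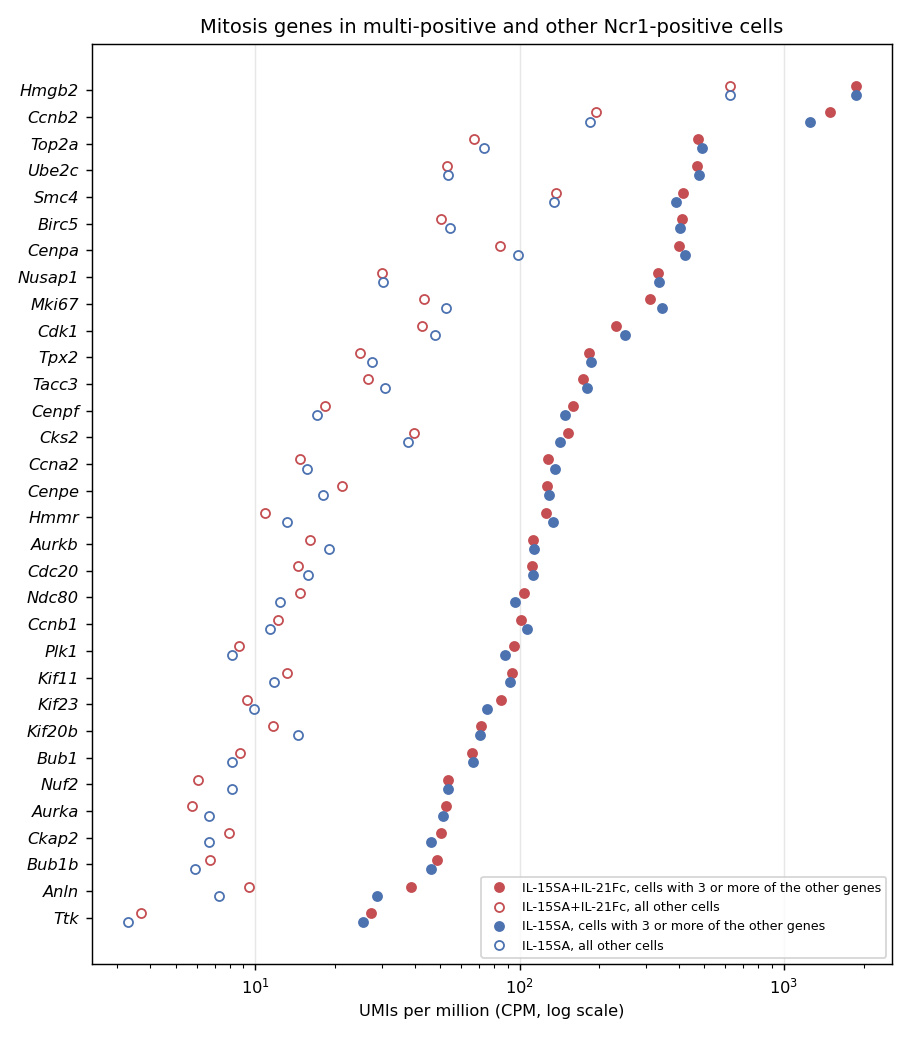
CPM of each mitosis gene on a log axis, in cells with at least 3 of the other mitosis genes (filled) and in all other Ncr1-positive cells (open), for the combination library and the IL-15SA library. The filled points of the libraries lie close to each other for most genes and stand 2.99 to 11.6 times above the open points in the combination library, and 2.90 to 11.1 times above them in the IL-15SA library.

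The genes differed in how closely they kept to multi-positive cells. All 32 were at least 2-fold higher in cells with 3 or more of the other genes than in other cells, in both libraries, beside 4.69% of 5411 genes in the combination library and 4.32% in the IL-15SA library; since the same genes chose the cells, nothing is read from that count. The fold had a median of 7.31 in the combination library and 7.13 in the IL-15SA library. Hmmr had folds of 11.6 and 10.2, Plk1 11.1 and 10.8, and Nusap1 11.1 and 11.1, in the combination and the IL-15SA library. Hmgb2 had a fold of 2.99 in both, and Smc4 folds of 3.02 and 2.90. Both genes were found in many cells that held none of the other 31 genes: Hmgb2 in 36.5% of such combination cells and 37.8% of such IL-15SA cells, and Smc4 in 10.6% and 11.6%. Ccnb2 followed with 8.84% and 10.2%, and Cenpa with 5.40% and 7.45%. These shares serve as the background of detection, as no cell type that should lack the genes was at hand, and 27 of the 32 genes stood under 5% in both libraries. Seen from the gene, 26.5% of Hmgb2-positive cells in the combination library and 22.8% in the IL-15SA library held no other mitosis gene, whereas for Nusap1 it was 3.58% and 4.90%. When Hmgb2 and Ccnb2 were left out of the call, a choice made after seeing the data, the ratio of multi-positive shares was 0.780.

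**Figure D3:**
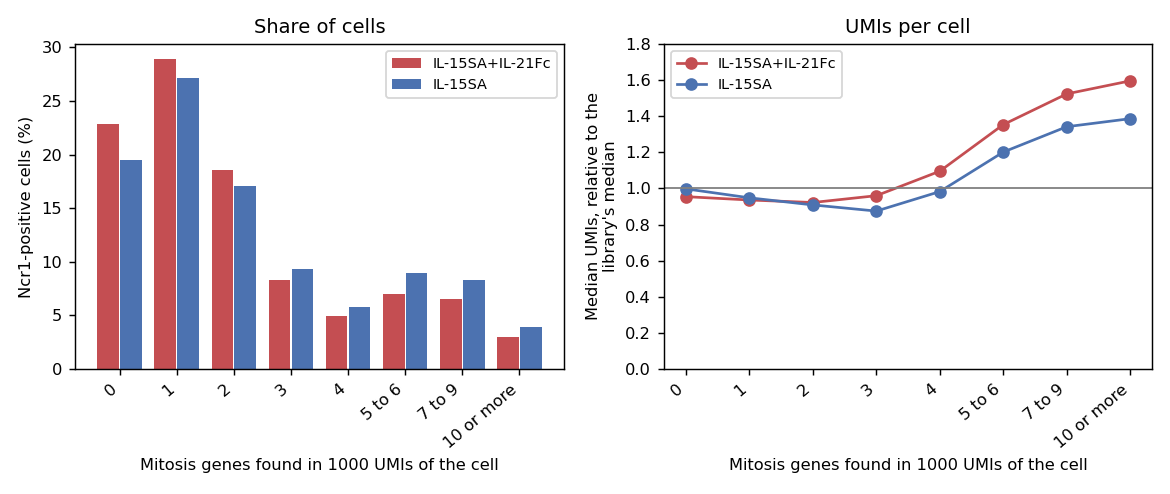
Left, percent of Ncr1-positive cells by the number of mitosis genes found in 1000 UMIs of the cell, combination library and IL-15SA library; right, median total UMIs of those cells relative to the library's median. Cells with 0 to 2 genes are a larger share of the combination library, and cells with 10 or more genes have 1.60 times the library's median UMIs in the combination library and 1.39 times in the IL-15SA library.

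Multi-positive cells held more UMIs in both libraries. Although detection was set to the same 1000 UMIs, their median total was 3095 UMIs in the combination library, 1.36 times the 2274.5 UMIs of the other cells. In the IL-15SA library it was 3607 UMIs, 1.19 times the 3029 UMIs of the other cells. The relation was not a straight line. Cells with exactly 2 mitosis genes had 0.922 times the library's median UMIs in the combination library and 0.909 times in the IL-15SA library, and cells with 7 to 9 genes had 1.52 times and 1.34 times. Over single cells, Spearman's rho between the number of mitosis genes and total UMIs was 0.174 in the combination library (11050 cells) and 0.110 in the IL-15SA library (7792 cells), a weak relation within a library. Multi-positive cells made up 47.2% of the barcodes with the 5% highest doublet scores in the combination library and 56.8% in the IL-15SA library, against 28.8% and 35.2% of the others, and without those barcodes the UMI ratios were 1.39 and 1.21.

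Ranked by total UMIs within each library, the deciles of cells with the fewest UMIs had more multi-positive cells than the middle ones. In decile 1 the share was 29.0% in the combination library and 41.9% in the IL-15SA library, in decile 4 it was 16.8% and 25.8%, and in decile 10, with the most UMIs, 59.1% and 60.8%. The share in the combination library was thus lower in deciles 1 to 6, with ratios between 0.601 and 0.763 and every interval below 1. In the upper 4 deciles the ratios lay between 0.890 and 0.998, and every interval held 1. The median of decile 1 was 1233 UMIs in the combination library and 1400 UMIs in the IL-15SA library, and that of decile 10 was 6110 UMIs and 8274 UMIs. Tumour or stroma markers were also high at both ends of the combination library, at 559 CPM in decile 1 and 686 CPM in decile 10, with 305 CPM and 223 CPM in the same deciles of the IL-15SA library. Their part in the shares was not tested; without the barcodes holding at least 2 such markers the ratio of multi-positive shares was 0.811.

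Compared at the same number of UMIs, the libraries crossed. In 10 bins with the same edges, the share of multi-positive cells was lower in the combination library in 6 bins, those up to 3134 UMIs, and higher in the 4 above. Between 1123 and 1419 UMIs it was 28.4% in the combination library and 43.8% in the IL-15SA library. Between 4472 and 5799 UMIs it was 52.1% in the combination library and 38.3% in the IL-15SA library. Weighted to the same mix of bins, the shares came to 32.2% in the combination library and 35.0% in the IL-15SA library, a ratio of 0.918. For cells with at least 7 genes the plain shares were 9.49% in the combination library and 12.2% in the IL-15SA library, and the weighted shares were 11.0% in both. The same weighting turned the median log2 ratio of the 32 genes to 0.11, with 29 above 0 and 3 below. So the direction over all cells holds only without it. The weighted median over all genes was 0.00057, and their split was not counted. A library's depth per cell and the RNA content of its cells cannot be told apart here.

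**Figure D4:**
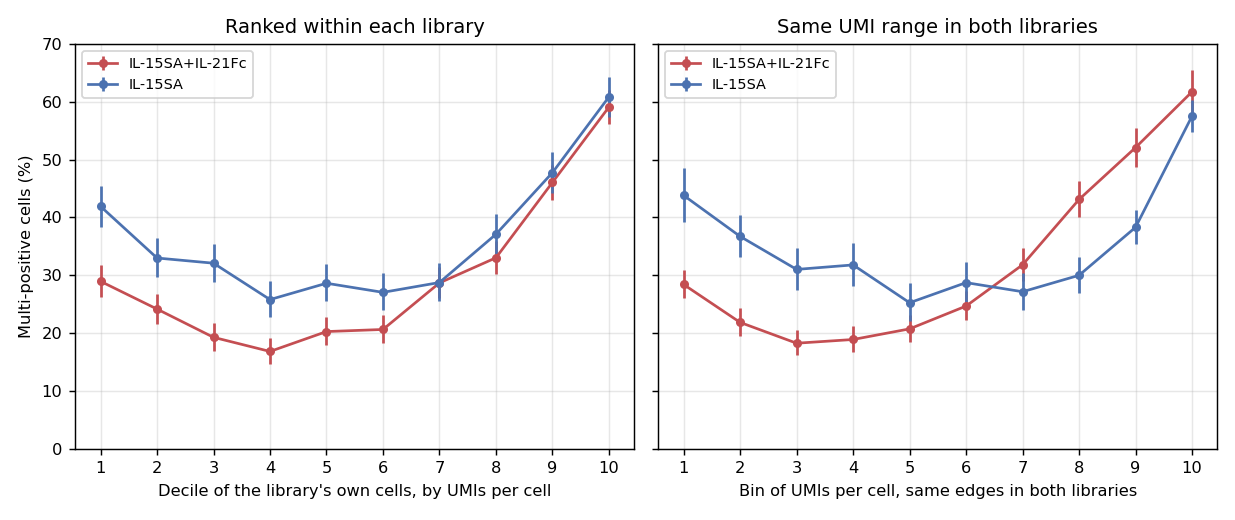
Percent of Ncr1-positive cells with at least 3 mitosis genes in 1000 UMIs, by decile of the library's own cells ranked on total UMIs (left) and by bins of total UMIs with the same edges (right), combination library and IL-15SA library, with 95% binomial intervals for counting error. On the left the combination library is lower in deciles 1 to 6 and close to the IL-15SA library above them; on the right it is lower in bins 1 to 6 and higher in bins 7 to 10.

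Levels of most of the genes were higher at both ends of the UMI range than in deciles 3 and 4. The CPM in decile 10 over that in deciles 3 and 4 had a median of 3.40 over the 32 genes in the combination library and 2.17 in the IL-15SA library, and was at least 2 for 30 genes and 18 genes. The range was 1.92 for Smc4 to 5.95 for Plk1 in the combination library, and 1.32 for Anln to 3.45 for Ccna2 in the IL-15SA library. Mki67 stood at 205 CPM in decile 10 of the combination library and 70.5 CPM in its deciles 3 and 4, and at 218 CPM and 125 CPM in those of the IL-15SA library. Decile 1 over deciles 3 and 4 had a median of 1.60 in the combination library, above 1 for 31 genes, and of 1.32 in the IL-15SA library, above 1 for all 32. These ratios were not computed over all genes, so whether the pattern is particular to the mitosis genes was not tested. In the IL-15SA library Anln was at 24.6 CPM in decile 1 and 19.9 CPM in decile 10, and Cenpf at 89.4 CPM and 87.6 CPM.

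The mitosis genes were next ordered by their company with 32 replication genes, which act in S phase. Cells with at least 3 of these in 1000 UMIs made up 30.3% of the combination library and 39.2% of the IL-15SA library. Cells positive on both lists were 15.5% of the combination library and 20.9% of the IL-15SA library, those with mitosis genes only 14.2% and 15.3%, those with replication genes only 14.8% and 18.3%, and those with neither 55.5% and 45.4%. Cells positive on both had 1.48 times the library's median UMIs in the combination library and 1.30 times in the IL-15SA library. Those with mitosis genes only had 1.05 and 0.951 times. No background of detection was set for the replication call, so replication-positive cells are not taken as S phase cells. Mcm2, at 485 CPM in the combination library and 528 CPM in the IL-15SA library, was 1.23 and 1.02 times higher in multi-positive than in other cells. Over the 31 replication genes measured, the median log2 ratio of multi-positive over other cells was 0.93 and 0.66.

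In replication-positive cells alone, 12 mitosis genes were lower and 20 higher in the combination library, beside 51.4% and 48.6% of 5570 genes, with a median log2 ratio of 0.02. When replication-positive cells were divided by the other cells of their own library, 13 of the 32 mitosis genes passed a 2-fold excess in combination cells, beside 3.97% of all genes, and 11 did in IL-15SA cells, beside 3.36%.

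Among multi-positive cells, 16 of the 32 genes were higher where replication genes were also present and 16 lower. All 32 fell on the same side in both libraries, some close to 0, such as Tacc3 at 0.19 and 0.003. The same count was not made over all genes, so nothing is read from it. The mitosis genes lowest beside replication genes were Cdc20, Cenpa, Ccnb2 and Ccnb1. Cdc20 was at 81.6 CPM with replication genes and 154 CPM without them in the combination library, and at 88.7 CPM and 152 CPM in the IL-15SA library, log2 ratios of -0.91 and -0.77. Those highest beside replication genes included Ttk (0.55 in the combination library, 0.75 in the IL-15SA library), Top2a (0.51 and 0.56), Aurkb (0.57 and 0.45), Ndc80 (0.59 and 0.35) and Kif11 (0.38 and 0.45). Top2a was at 540 CPM with replication genes and 378 CPM without them in the combination library, and at 556 CPM and 378 CPM in the IL-15SA library. Plk1, at -0.15 and -0.03, and Birc5, at 0.06 and 0.16, lay near the middle. The spread between libraries is the only check on this order, as each point rests on 1 library.

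**Figure D5:**
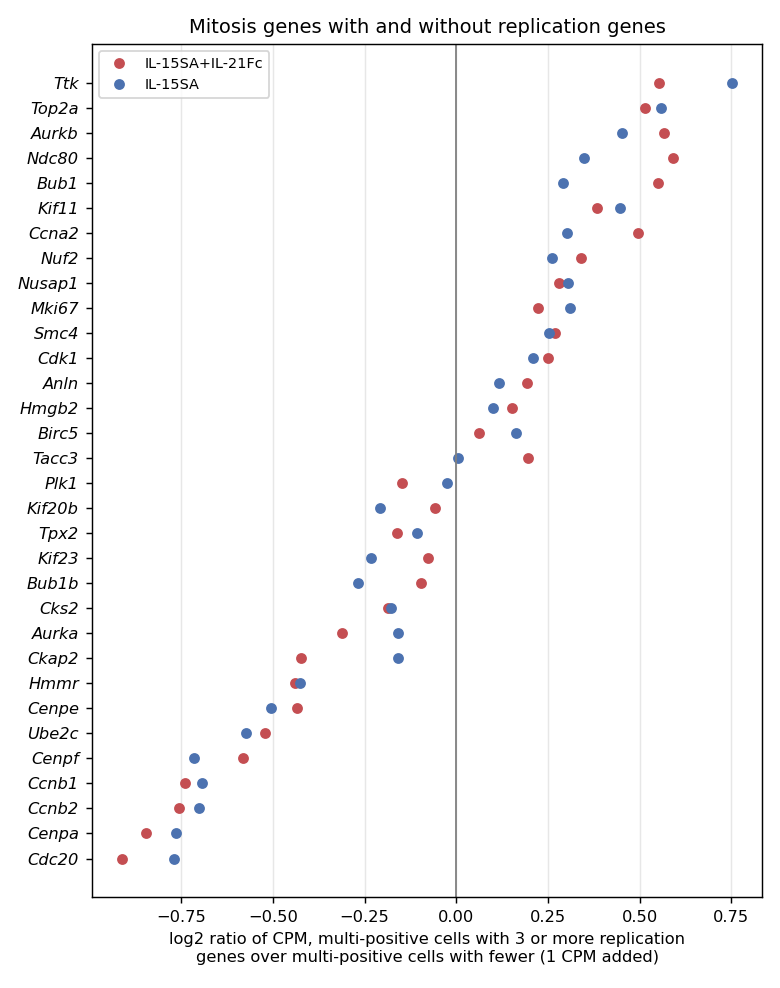
log2 ratio of CPM in multi-positive cells with at least 3 replication genes over multi-positive cells with fewer, for each mitosis gene, combination library and IL-15SA library. Genes run from Cdc20 at -0.91 and -0.77 to Ttk at 0.55 and 0.75, and each gene lies on the same side of 0 in both libraries.

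The promoters of genes at the ends of this order were read to see which short elements they share. Many G2 and M genes are known to carry a cell cycle genes homology region (CHR), TTTGAA, near their start, often with CCAAT boxes upstream, where NF-Y binds. RefSeq promoter windows (GRCm38.p6, the build also called mm10; 250 bases before to 50 after the start) were found for 28 of the 32 genes, all but Ccna2, Aurkb, Tpx2 and Smc4. As a check of orientation, bases just after the start were found in a transcript of the gene for 19 of the 28. The 3 lowest and 3 highest genes of the order with a TTTGAA in the stretch are shown from 100 bases before to 30 bases from the start on, upstream sequence and the beginning of the first exon, on the gene's strand. Capitals mark TTTGAA and CCAAT, or their reverse complements TTCAAA and ATTGG. Cdc20 lies at chr4:118437314-118437443 on the minus strand, Cenpa at chr5:30666786-30666915 on the plus strand, Ccnb2 at chr9:70421525-70421654 on the minus strand, Ttk at chr9:83834589-83834718 on the plus strand, Top2a at chr11:99024160-99024289 on the minus strand and Kif11 at chr19:37376282-37376411 on the plus strand.
Cdc20: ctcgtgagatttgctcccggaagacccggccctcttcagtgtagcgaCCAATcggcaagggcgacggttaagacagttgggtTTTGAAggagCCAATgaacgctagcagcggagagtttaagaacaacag
Cenpa: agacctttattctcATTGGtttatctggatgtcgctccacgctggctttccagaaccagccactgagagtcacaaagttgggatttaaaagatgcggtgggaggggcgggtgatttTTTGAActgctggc
Ccnb2: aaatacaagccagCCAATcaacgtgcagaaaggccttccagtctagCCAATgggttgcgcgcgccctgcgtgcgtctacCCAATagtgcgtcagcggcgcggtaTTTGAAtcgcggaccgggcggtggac
Ttk: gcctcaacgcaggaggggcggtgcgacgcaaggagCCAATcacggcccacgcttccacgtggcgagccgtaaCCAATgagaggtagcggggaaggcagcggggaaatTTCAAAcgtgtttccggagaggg
Top2a: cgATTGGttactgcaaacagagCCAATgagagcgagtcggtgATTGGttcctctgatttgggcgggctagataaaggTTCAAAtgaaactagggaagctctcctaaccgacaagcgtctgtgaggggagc
Kif11: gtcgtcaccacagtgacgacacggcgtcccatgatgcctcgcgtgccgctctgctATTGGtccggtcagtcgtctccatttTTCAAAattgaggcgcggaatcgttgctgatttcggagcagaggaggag

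TTTGAA on either strand stood in 20 of the 28 windows (71.4%), beside 17.9% of all 32851 windows of the table. Within 100 bases before to 50 after the start it stood in 19 (67.9%), beside 8.01% of all. CCAAT on either strand stood in 21 windows (75%), beside 37.4% of all, and both elements together in 17 (60.7%), beside 6.95%. Another CHR form, TTCGAA, was in 3 windows (10.7%), beside 1.56% of all, and no further form was searched. The E2F elements TTTCCCGC and TTTGGCGC, read on both strands, were in 0 of the 28, beside 1.07% and 0.514% of all. TTTGAA was present near the start in 11 of the 15 genes that were lower beside replication genes and in 8 of the 13 that were higher. It read in the direction of the gene in 10 of those 11 and in 4 of those 8, as in Cdc20, Cenpa and Ccnb2 against Ttk, Top2a and Kif11 above. Direction was not counted over all windows, so nothing is read from this contrast. A match is a description of these letters and not a bound site.

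Other genes of the cell cycle were set beside the 32. Of 65 further mitosis genes, 61 reached 5 CPM over all cells, and 51 of these were lower in the combination library, beside 53.2% of all genes, with a median log2 ratio of -0.14. In multi-positive cells 29 of 64 were lower, beside 51.5% of all genes, with a median of 0.02. Of 32 replication genes 31 were measured, and all 31 were lower over all cells, with a median of -0.21. In multi-positive cells 21 were lower, with a median of -0.05. Neither list was recomputed with cells weighted to the same UMIs per cell. None of either list passed 1.5-fold, as 0.492% of all genes did downward and 1.93% upward over all cells, and 0.603% and 2.34% in multi-positive cells. The genes that stood highest in multi-positive over other cells in both libraries were further mitosis genes for the most part, among them Aspm, a spindle pole protein, Ckap2l, Kif2c, Prc1, which bundles the central spindle, Kif14 and the cohesin protector Sgol2a, together with the cohesin acetyltransferase Esco2 and Mxd3. Aspm was at 33.1 CPM in multi-positive cells and 2.80 CPM in other cells of the combination library, and at 36.0 CPM and 2.95 CPM in the IL-15SA library.

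Many genes of NK effector function had lower CPM in multi-positive cells of each library. Of 23 measured effector and maturation genes, 18 were lower in multi-positive than in other cells in both libraries, beside 34.6% of 5411 genes. None was 2-fold lower, and among all genes 7 were in the combination library and 2 in the IL-15SA library. The median log2 ratio was -0.27 in the combination library and -0.17 in the IL-15SA library, where all genes had medians of 0.04 and 0.03. Prf1, which encodes perforin, was at 1073 CPM in multi-positive cells and 1502 CPM in other cells of the combination library, and at 1567 CPM and 2058 CPM in the IL-15SA library. The granzyme Gzma was at 12951 CPM and 15657 CPM in those cells of the combination library, and at 15309 CPM and 18744 CPM in the IL-15SA library. CPM are shares of a cell's UMIs, and multi-positive cells had more UMIs. Of 15 genes of cycle brakes and quiescence, 8 were higher in multi-positive cells of both libraries and 6 were lower in both. Only the Cdk4 and Cdk6 inhibitors Cdkn2c and Cdkn2d were at least 2-fold higher. Over all genes 4.69% were in the combination library and 4.32% in the IL-15SA library. Cdkn2d was at 226 CPM in multi-positive cells and 107 CPM in other cells of the combination library, and at 232 CPM and 94.1 CPM in the IL-15SA library. Ccnd2, a D cyclin of G1, was lower, at 80.5 CPM and 132 CPM in the combination library and 72.2 CPM and 124 CPM in the IL-15SA library.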

How the data were processed

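The files hold deposited counts, whole UMIs per gene and barcode, made by the authors from GEXSCOPE microwell libraries. The submitters' processing notes name cutadapt, featureCounts, Seurat 4 and Scanpy and the build mm10; for the aligner, annotation and cell calling, the step is not given in the sources used here. Barcodes with fewer than 200 genes or more than 20% mitochondrial UMIs were left out (5 in the combination library, 0 in the IL-15SA library), and at least 1 Ncr1 UMI was required. Counts were used with Python 3.11.15, numpy 2.4.6 and scipy 1.17.1, and doublet scores came from Scrublet in scanpy 1.11.5. Scrublet's own threshold marked 1 and 2 barcodes and had not worked, so none was removed, and an alternative left out the 5% highest scores. UMIs were summed per library; log2 ratios had 1 CPM added, and single ratios had nothing added. Calls needed 20 CPM in 1 library (lists 5 CPM) and a 1.5-fold difference. Intervals are exact binomial for shares, exact conditional binomial for ratios of CPM and log normal for ratios of shares, and cover counting error only. Named genes are the 32 members, the 12 highest and 8 lowest others in multi-positive over other cells, and the lists; some of these are not reported here. The members and lists were chosen with earlier results of these data known. The scripts were tested on simulated data. Symbols shared by several genes numbered 118, none of them a member, and 1 listed symbol, Sgo2a, was not matched. Gene coordinates are from GENCODE M21 on mm10.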

Additional observations from a re-analysis of the deposited data

Results flagged for a closer look

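Barcodes without an Ncr1 UMI, left out of all comparisons above, held mitosis genes as well. At least 3 of the 32 were found in 36.7% of 1380 such barcodes of the combination library (34.2 to 39.3%) and in 41.9% of 594 of the IL-15SA library (37.9 to 46.0%). Barcodes with exactly 1 Ncr1 UMI had shares of 33.3% in the combination library and 39.9% in the IL-15SA library, and those with 4 or more 29.5% and 35.9%. The share was thus higher with no Ncr1 UMI than with many, and lower in the combination library at every step. The barcodes without Ncr1 were also shallower, with medians of 1728 UMIs in the combination library and 1738.5 UMIs in the IL-15SA library. The part of depth or of other cell types in these shares was not tested. Groups of 1 library allowed no search for outlying samples.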

How the results depend on the processing

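Of 56 recomputed values 42 stayed within the interval of the reported value (for a count, within 1.5 times), 13 moved and 1 reversed. For a median log2 ratio this interval was the median of the single-gene bounds, -0.11 to 0.12 in multi-positive cells. That is the width for a typical gene and not an interval of the median, so staying within it is a weak mark. For a UMI ratio it came from rank-based bounds of both medians. The reversed one is the median log2 ratio of the 32 genes over all Ncr1-positive cells, which was -0.12, against 0.11 with libraries matched on UMIs per cell; it ranged from -0.23 to -0.11 under the other alternatives. The ratio of multi-positive shares, 0.818, was 0.904 with at least 2 genes required, 0.777 with 5, 0.918 matched on UMIs and 0.780 without Hmgb2 and Ccnb2, the last chosen after seeing the data. The UMI ratio of multi-positive to other cells in the combination library, 1.36, was 1.16 with 2 genes, 1.57 with 5, 1.5 when thinned to 500 UMIs, 1.5 without thinning and 1.47 without Hmgb2 and Ccnb2. In the IL-15SA library, 1.19, it was 1.07 with 2 genes, 1.38 with 5, 1.32 when thinned to 500 UMIs and 1.55 without thinning. The cause was not tested. The median log2 ratio in multi-positive cells, -0.0015, lay between -0.05 and 0.08, on both sides of 0, under the alternatives run for it. The number of genes past 1.5-fold over all Ncr1-positive cells was 0 under each alternative run for that count. Leaving out barcodes found in both libraries, also chosen after seeing the data, gave a ratio of shares of 0.818. No paired analysis was possible because the labels give no replicate numbers and a group is 1 library. Leaving out a library was likewise not possible. Depth limits the single genes: Ttk rests on 393 UMIs in the combination library and 369 in the IL-15SA library.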

Other observations

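Genes that stood lowest in multi-positive over other cells, by the rule for named genes, were Tcp11l2, Gzmf, Osgin1, Hopx, Fcrl6, Ccnd2, Ctss and Tcn2. Tcp11l2 was at 10.3 CPM in multi-positive cells and 29.7 CPM in other cells of the combination library, and at 8.36 CPM and 24.1 CPM in the IL-15SA library, log2 ratios of -1.44 and -1.42. Hopx, which encodes a small homeodomain protein, was at 74.4 CPM and 138 CPM in the combination library, and at 73.1 CPM and 126 CPM in the IL-15SA library. Fcrl6, an Fc receptor-like gene, was at 21.7 CPM and 44.9 CPM in the combination library, and at 33.0 CPM and 56.9 CPM in the IL-15SA library. Gzmf was at 22.8 CPM and 46.9 CPM in the combination library, and at 44.0 CPM and 111 CPM in the IL-15SA library; its near-identical granzyme neighbours make this count uncertain. Genes at the other end included Aspm, Ckap2l, Esco2, Kif2c, Arhgap19, Prc1, Kif14, Sgol2a, Kif20a, Kif22 and Mxd3, which had log2 ratios between 2.81 and 3.27. Cdkn1a, an inhibitor of cyclin-dependent kinases, was at 330 CPM in multi-positive cells and 224 CPM in other cells of the combination library, and at 320 CPM and 251 CPM in the IL-15SA library. The members chose these cells, so the values describe them and test nothing.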
